A study of Capitella teleta with 12 samples.

Results

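Individual embryos of *Capitella teleta*, a marine annelid with spiral cleavage, were measured by CEL-Seq, a 3′-end method in which a unique molecular identifier (UMI) lets amplified copies of a transcript be counted once. The samples were 12 whole embryos, of which 4 had 8 cells, 3 had 16 cells and 5 had 32 cells. The labels name no treatment, strain or parent for any of them, so stage is the only difference they give, and the p-values of fits over these embryos measure only the spread between them. The transcripts described here were those that stood high through the 8- and 16-cell stages and low at the 32-cell stage, 72 of the 32415 gene models in the table. They were chosen by their counts in all 12 embryos. Levels are given as CPM, the counts of a gene scaled to a total of 1e+06 counts for the embryo or stage, and are not corrected for depth in any other way. A gene needed at least 20 CPM at the 8- and 16-cell stages, a 16-cell level of at least 0.75 times and a 32-cell level of at most 0.6 times the 8-cell level, and a level in each of the 7 younger embryos above that in each of the 5 older ones. A cap of 100 genes was not reached. Because the levels themselves made the choice, all values between stages are given as a description, with no test.

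In most animals the egg stocks RNAs during oogenesis that run the first cleavages, and the embryo later removes many of them while its own genome becomes active. Removal often proceeds in waves, one carried out by maternal factors and a later one that needs products of the embryo's genome, and shortening of the poly(A) tail is a common first step. In *C. teleta*, the cell with organizing activity, 2d, is born as the embryo reaches the 16-cell stage. The gene models carry numbers only. All 72 members matched a locus tag in the annotation of the same assembly (Capca1), which gives positions without scaffold names and a gene symbol for 0 of the 72, so no function is given for any of them. Eggs and earlier embryos were not analysed here, so a maternal origin of these transcripts is not shown by these values, and a level in CPM is a share of the counted RNA, in which fewer copies of a transcript and more RNA of other genes cannot be told apart. Whole embryos were measured, so a loss in some cells and a lower level in all cells cannot be told apart either.

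The number of genes at each step of the choice shows how the members stand among lowered transcripts. The level floor was met by 5140 genes. Of these, 729 stood at no more than 0.6 times their 8-cell level by the 32-cell stage, and for most of them, 511 genes, the level already stood below 0.75 times at the 16-cell stage. The other 218 (29.9% of the 729) were at or above it, and 72 of these had no overlap between the 7 younger and the 5 older embryos. Such a lack of overlap, with the younger embryos higher, was found for 196 genes or 3.81% of those at the floor, and in the opposite direction for 37 genes. It was a condition of the choice, so all 72 members had it.

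Summed over the 72 members, the level was 11997, 11690.2, 11799 and 11529 CPM in the 8-cell embryos. In the 16-cell embryos it was 9682, 10131 and 10170.2 CPM. In the 32-cell embryos it was 6329, 6201, 6048, 6066 and 5421 CPM. The stages did not overlap, and the 16-cell embryos lay between the other groups, nearer to the 8-cell embryos. The place of the 32-cell embryos below all others was fixed by the choice, and its limits favour the place of the 16-cell embryos. The stage means, in order, were 11754 ± 196 (SD, n = 4), 9994 ± 271 (SD, n = 3) and 6013 ± 350.1 (SD, n = 5). The members thus held 1.15% to 1.20% of all counts at the 8-cell stage and 0.542% to 0.633% at the 32-cell stage. The lowest 32-cell value belonged to replicate 5, which also had the smallest total (236321 counts, against 286145 to 491733 in the 8- and 16-cell embryos). Replicate 5 was the lowest of the 5 older embryos for 27 of the 72 members, and the median over all 5140 genes at the floor, relative to their 8-cell level, was lowest in it as well (0.830, against 0.903 to 0.930 in the other 32-cell embryos). The part of depth in this was not tested.

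**Figure D1:**
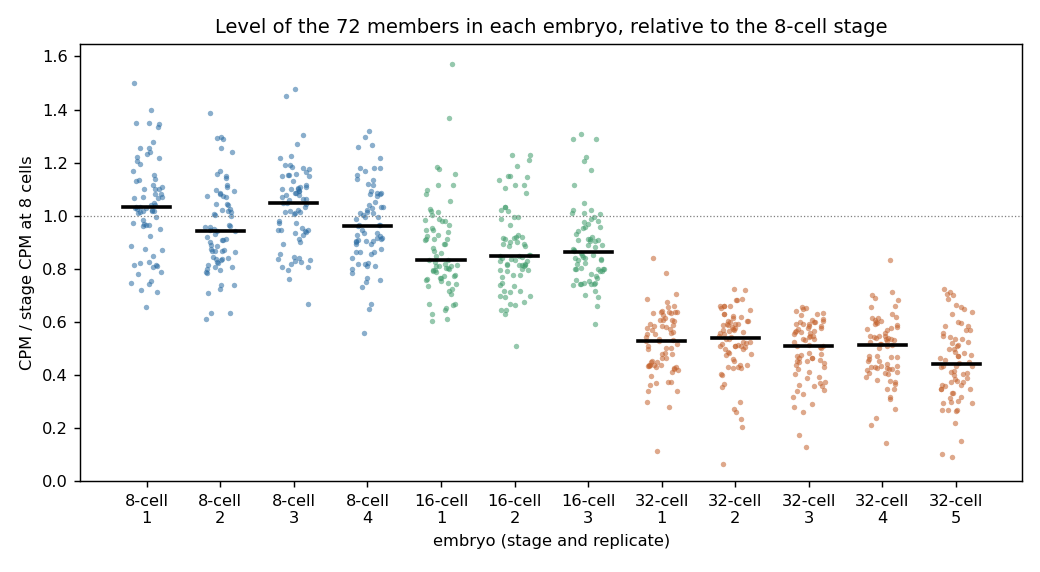
Level of each of the 72 members (points) in each of the 12 embryos, as CPM divided by the CPM of the 8-cell stage; black bars are medians over the members and the dotted line marks the 8-cell level. The medians lie at 0.941 to 1.05 in the 8-cell embryos, 0.834 to 0.864 in the 16-cell embryos and 0.442 to 0.540 in the 32-cell embryos.

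The members differed in their level at the 16-cell stage relative to the 8-cell stage. The median ratio of the 16-cell to the 8-cell level was 0.847, with a range of 0.758 to 1.17, against a median of 1.01 over the 5140 genes at the floor. At the 16-cell stage 60 members stood below their 8-cell level and 12 above it, and 19 were within 0.9 to 1.1 times of it. For 13 members (18.1%) every 16-cell embryo was below every 8-cell embryo, which held for 11.7% of the genes at the floor. The opposite order, all 16-cell embryos higher, was found for 0 members and 12.3% of the genes at the floor. The 8-cell level is the denominator of both ratios in the choice, so members with a chance high 8-cell value are favoured and the share below 1 cannot be read as a drop by itself. Whether the members were lowered before the 32-cell stage is therefore not settled by these values, and they are called here by the rule, not as transcripts lowered only at that stage.

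The larger step came after the 16-cell stage for nearly all members, an order that the rule itself favours. The median ratio of the 32-cell to the 16-cell level was 0.579 (range 0.289 to 0.768), where the genes at the floor had a median of 0.905. On the log2 scale, the difference between the 16- and 32-cell stages exceeded that between the 8- and 16-cell stages for 71 of 72 members and made up a median of 78.0% of the whole difference. In log2 fold changes fitted with edgeR after TMM scaling, the second step was the larger for 66 members and the first for 6. Of the log2 difference in stage CPM, the second step made up 80% or more for 31 members and under 60% for 9. This share of the log2 difference was smallest in gene model 111414, with 48.8%. The limit on the 16-cell level caps the first step. The limit on the 32-cell level sets a least size for the whole difference. These counts and shares thus follow largely from the choice and are no result about timing. From the 8- to the 32-cell stage the median ratio was 0.512, where the genes at the floor had 0.916, and it was under 0.5 for 29 members and under 0.4 for 8. No member was cleared, since all 72 had at least 1 count in each of the 12 embryos.

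**Figure D2:**
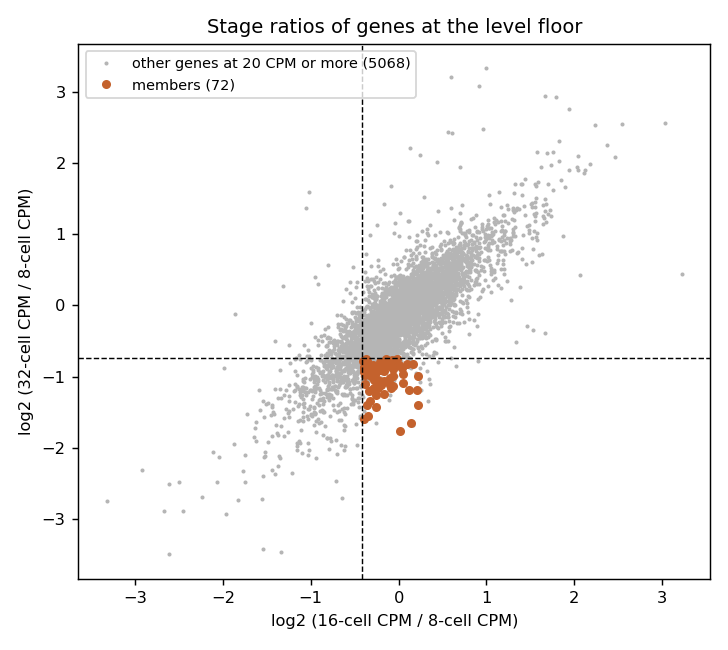
Ratio to the 8-cell level at the 16-cell stage (x axis, log2) and at the 32-cell stage (y axis, log2) for the 5140 genes with at least 20 CPM at the 8- and 16-cell stages; members are orange and dashed lines mark ratios of 0.75 and 0.6. The 72 members occupy the space right of the vertical and below the horizontal line, where 146 genes with overlapping embryos also lie, and 60 of the 72 are left of 0 on the x axis.

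All 72 members were among the 11854 genes tested with edgeR's quasi-likelihood test on the counts of the 12 embryos, and the shares called lower at an adjusted p under 0.05 are given here for reference only, since the choice used the same contrasts. From the 8- to the 16-cell stage 0 members were called lower, against 3.91% of all genes tested. The median fitted log2 fold change of the members was -0.27 and that of all genes 0.08. From the 16- to the 32-cell stage 20 members were called lower, against 0.472% of all genes, with a median of -0.72 for the members. This count was 13 when 16-cell replicate 2 was left out and 9 when the deepest embryo, 16-cell replicate 3, was left out. From the 8- to the 32-cell stage 64 members were called lower, against 8.98% of all genes, and across the 3 stages together 58 members were called, against 17.2%. With DESeq2's tests 1 member was called lower at the first step and 11 at the second.

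The 4 most abundant members, all above 500 CPM at the 8-cell stage, held 24.6% of the summed 8-cell level of the set, and the 10 most abundant held 43.8%. Gene model 228702 (scaffold positions 279510-284702), the most abundant, stood at 814, 1184, 743 and 994 CPM in embryos of 8 cells, at 871, 1042 and 915 CPM in those of 16 cells and at 577, 519, 482, 391 and 525 CPM in those of 32 cells. The level varied widely among the 8-cell embryos, whose range held all 3 of the 16-cell embryos, while all 5 of the 32-cell embryos were below both groups. The ratio of the 16- to the 8-cell level was 1.03, and that of the 32- to the 16-cell level was 0.526 (exact 95% interval from counting error 0.480 to 0.577). The fitted log2 fold changes were -0.02 (standard error 0.16) for the first step and -0.85 (standard error 0.15) for the second. It was the only one of the 4 that was level up to the 16-cell stage.

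Gene model 227223 (scaffold positions 319992-321246) stood at 776, 685, 683 and 795 CPM in embryos of 8 cells, at 600.0, 608 and 620.3 CPM in those of 16 cells and at 443, 423, 388, 308 and 317 CPM in those of 32 cells. Its 3 16-cell embryos were close together, below every 8-cell embryo and, by the choice, above every 32-cell embryo. Whether its level dropped by the 16-cell stage is not settled by this, since the choice favours a chance high 8-cell value. Means were 735 ± 59.3 (SD, n = 4), 609.6 ± 10.2 (SD, n = 3) and 376 ± 61.1 CPM (SD, n = 5), with fitted log2 fold changes of -0.30 (standard error 0.13) and -0.62 (standard error 0.13). Gene model 162025 (scaffold positions 743216-744597) stood at 681, 798, 762 and 604 CPM in embryos of 8 cells, at 529.7, 573 and 533 CPM in those of 16 cells and at 315, 347, 430.4, 492 and 343 CPM in those of 32 cells. Here the fitted steps were of equal size, -0.42 (standard error 0.15) and -0.42 (standard error 0.15), and 32-cell replicate 4 came close to the 16-cell embryos. Gene model 181567 (scaffold positions 377085-378474) stood at 584, 496, 549.7 and 474 CPM in embryos of 8 cells, at 428, 388 and 417 CPM in those of 16 cells and at 346, 286, 329.7, 301 and 275 CPM in those of 32 cells. Its 16-cell embryos were again between the other stages without overlap, and the fitted steps were -0.39 (standard error 0.13) and -0.34 (standard error 0.13). With TMM or DESeq2 scaling 162025 and 181567 no longer met the rule, and 162025 was also lost with the binomial conversion of UMI counts. Other members described below were lost under some of these settings too.

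The next 6 by abundance had 8-cell levels of 322 to 443 CPM. The largest difference among them was in gene model 183104 (scaffold positions 71329-77803). It stood at 297, 402, 290.4 and 474 CPM in embryos of 8 cells, at 217, 303 and 301 CPM in those of 16 cells and at 161, 154, 101, 147 and 106 CPM in those of 32 cells. The 8-cell embryos spread widely, 1 of the 16-cell embryos was below all of them and the other pair lay at their lower end, and the 32-cell embryos lay apart at a level 0.377 times that of the 8-cell stage. The second step was -0.96 (standard error 0.19) on the log2 scale. Gene model 199266 had the same order, with means of 352 ± 97.4 (SD, n = 4), 301 ± 64.2 (SD, n = 3) and 162 ± 36.5 CPM (SD, n = 5). It reached 0.464 times its 8-cell level, and its 8-cell embryos ranged from 262 to 490.1 CPM.

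Gene model 212982 (scaffold positions 214751-215083) stood at 388, 408, 406 and 399 CPM in embryos of 8 cells, at 300.0, 279 and 388 CPM in those of 16 cells and at 201, 228, 238, 214 and 139.6 CPM in those of 32 cells. The 8-cell embryos agreed to within 8.96 CPM (SD, n = 4), the smallest spread among the 10 most abundant, and 16-cell replicate 3 stood with them rather than with the other 16-cell embryos. Gene model 224102 went from 326 ± 30.3 (SD, n = 4) through 258 ± 43.5 (SD, n = 3) to 162 ± 21.9 CPM (SD, n = 5). Gene model 211703 had means of 378 ± 61.4, 287 ± 5.88 and 193 ± 21.2 CPM over the same numbers of embryos. The span of 211703 overlaps a neighbouring gene model, and how reads of such genes were divided is not given in the sources used here. In gene model 212611 the means were 437 ± 38.2, 342 ± 30.0 and 262 ± 32.4 CPM, and it had the narrowest separation of all members, with 308 CPM in the lowest 16-cell embryo and 305 CPM in the highest 32-cell embryo.

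**Figure D3:**
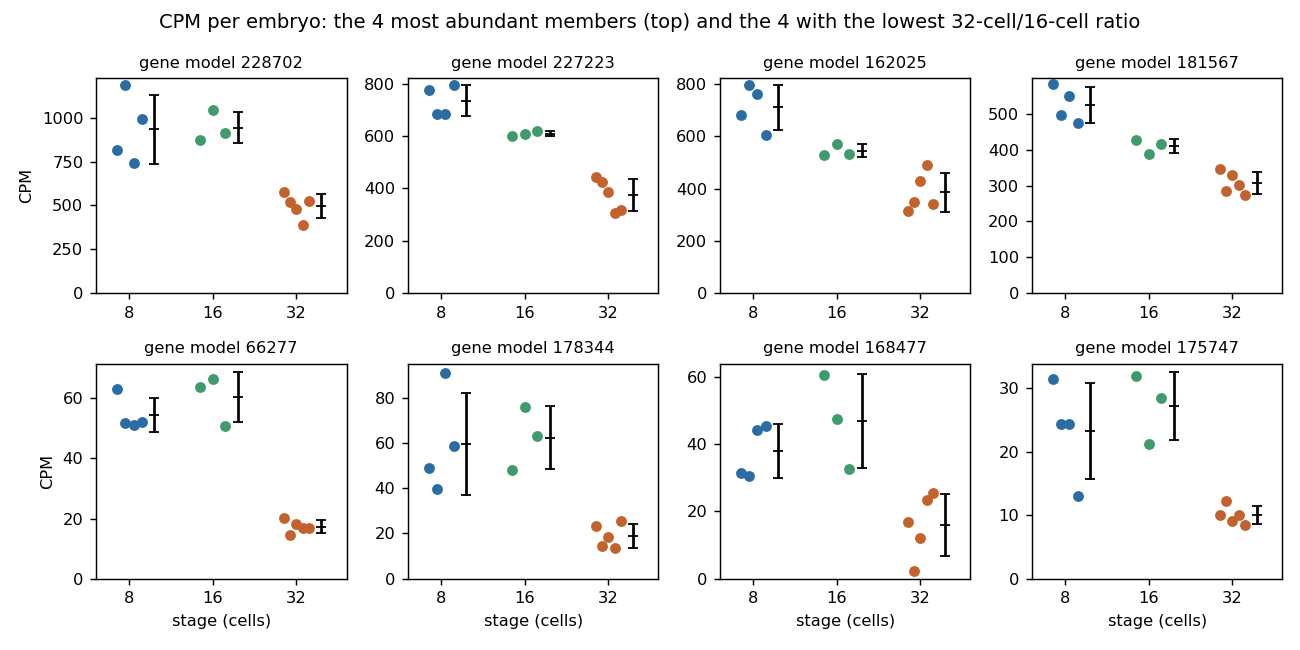
CPM in each embryo (points) with mean and SD (black, beside the points) for the 4 most abundant members (top row) and the 4 with the lowest ratio of the 32-cell to the 16-cell level (bottom row); axes start at 0 and differ between panels. In gene model 66277 the 5 older embryos lie at 14.7 to 20.1 CPM and the 7 younger ones at 50.8 to 66.3 CPM.

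The lowest ratios of the 32-cell to the 16-cell level were found among less abundant members. Gene model 66277 (scaffold positions 513165-513533) stood at 62.9, 51.8, 51.0 and 51.9 CPM in embryos of 8 cells, at 63.8, 66.3 and 50.8 CPM in those of 16 cells and at 20.1, 14.7, 18.3, 16.7 and 16.9 CPM in those of 32 cells. No embryo of the 32-cell stage came near the younger embryos, and it had the widest separation of all members, with a lowest younger embryo 2.53 times the highest older one. Its counts were 18, 17, 23 and 16 in the 8-cell, 20, 28 and 25 in the 16-cell and 6, 6, 6, 5 and 4 in the 32-cell embryos. The ratio of the 32- to the 16-cell level was 0.289 (exact 95% interval from counting error 0.179 to 0.455), and the fitted steps were 0.11 (standard error 0.27) and -1.71 (standard error 0.29). Its 16-cell embryos lay on both sides of the 8-cell range, at 63.8 and 66.3 CPM above it and at 50.8 CPM just below. The 8- and 16-cell stages thus did not separate, and only the 32-cell embryos stood apart.

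Gene model 178344 (scaffold positions 357082-358487) stood at 48.9, 39.6, 90.9 and 58.4 CPM in embryos of 8 cells, at 47.9, 75.8 and 63.0 CPM in those of 16 cells and at 23.5, 14.7, 18.3, 13.4 and 25.4 CPM in those of 32 cells. One embryo, 8-cell replicate 3, was higher than the rest, and the older embryos again lay apart from all others. The ratio of the 32- to the 16-cell level was 0.291 (exact 95% interval from counting error 0.183 to 0.451), and that to the 8-cell level, 0.295, was the lowest of all members. Gene model 168477 (scaffold positions 12739-14317) stood at 31.5, 30.4, 44.3 and 45.5 CPM in embryos of 8 cells, at 60.6, 47.4 and 32.5 CPM in those of 16 cells and at 16.8, 2.45, 12.2, 23.4 and 25.4 CPM in those of 32 cells. Its older embryos ranged from 1 to 7 counts each, so its ratio of 0.327 (exact 95% interval from counting error 0.192 to 0.541) has a wide interval. Gene models 175747 and 4697 had ratios of 0.379 (exact 95% interval from counting error 0.195 to 0.709) and 0.404 (exact 95% interval from counting error 0.206 to 0.761), on 16 counts each over the 5 older embryos. In all 5 of these members the 16-cell level was higher than the 8-cell level, by ratios of 1.02 to 1.16. In none did the 16-cell embryos stand apart from the 8-cell embryos. Picking the lowest 32- to 16-cell ratios favours a chance high 16-cell value, so these ratios cannot be read as a rise.

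The other 5 of the 10 lowest ratios included members on more counts. Gene model 20475 (scaffold positions 133665-134976) stood at 259, 201, 264 and 259.7 CPM in embryos of 8 cells, at 198, 197 and 219.6 CPM in those of 16 cells and at 83.9, 73.4, 88.5, 130.4 and 88.9 CPM in those of 32 cells. Its 16-cell embryos lay close to the lowest 8-cell embryo and below the other 3, and its 32-cell embryos were far below, with replicate 4 the highest. The ratio was 0.445 (exact 95% interval from counting error 0.360 to 0.548), on 253 and 144 counts at the 16- and 32-cell stages. Gene model 149659 (scaffold positions 65403-68024) stood at 83.9, 79.2, 86.4 and 61.7 CPM in embryos of 8 cells, at 83.0, 87.6 and 75.2 CPM in those of 16 cells and at 26.8, 46.5, 36.6, 40.1 and 29.6 CPM in those of 32 cells. Apart from 8-cell replicate 4 the younger embryos were within 75.2 to 87.6 CPM, and the older stage stood at 0.454 times the 16-cell level, with fitted steps of 0.03 (standard error 0.23) and -1.09 (standard error 0.24). Gene model 91922 (scaffold positions 5227-6219) stood at 73.4, 79.2, 99.7 and 74.7 CPM in embryos of 8 cells, at 79.8, 99.4 and 108 CPM in those of 16 cells and at 70.5, 44.0, 36.6, 20.1 and 38.1 CPM in those of 32 cells. It had the highest 16- to 8-cell ratio of all members, 1.17, and 32-cell replicate 1 almost reached the lowest 8-cell embryo. Gene models 191019 and 94023 had ratios of 0.434 each, both on 45 counts over the 16-cell and 25 over the 32-cell embryos.

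Members with a 16-cell level above the 8-cell level were mostly of low abundance. Of the 12 such members, 5 were under 50 CPM and 6 at 50 to 100 CPM at the 8-cell stage, and the last was 228702. Besides those described, they were gene models 89899 (1.12), 154009 (1.06), 174526 (1.03) and 214334 (1.00), the number being the ratio of the 16- to the 8-cell level. The 13 members whose 16-cell embryos all stood below all 8-cell embryos were of higher abundance, with 8-cell levels of 77.2 to 728 CPM. These groups also differ in depth, with 106 to 1000 counts over the 8-cell embryos in the second group and 32 to 116 in the first, 228702 aside. Gene model 228814 had the highest ratio of these, 0.847, with 283, 216, 224 and 234 CPM in embryos of 8 cells, 201, 201 and 199 CPM in those of 16 cells and 97.3, 113, 107, 137 and 63.5 CPM in those of 32 cells.

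All members can be placed by their 8-cell level. Among the 15 members at 20 to 50 CPM, the 32-cell level ranged from 10.2 to 22.9 CPM, the 16- to 8-cell ratio had a median of 0.882 and the 32- to 16-cell ratio one of 0.521 (range 0.327 to 0.666). Among the 20 at 50 to 100 CPM, the 32-cell level ranged from 17.2 to 53.5 CPM, the 16- to 8-cell ratio had a median of 0.914 and the 32- to 16-cell ratio one of 0.546 (range 0.289 to 0.675). Among the 19 at 100 to 200 CPM, the 32-cell level ranged from 47.1 to 106 CPM, the 16- to 8-cell ratio had a median of 0.839 and the 32- to 16-cell ratio one of 0.640 (range 0.475 to 0.768). The median ratio was lower in the classes under 100 CPM than in the others. For the 14 members at 200 to 500 CPM, the 32-cell level ranged from 91.7 to 261 CPM, the 16- to 8-cell ratio had a median of 0.805 and the 32- to 16-cell ratio one of 0.629 (range 0.445 to 0.763). For the 4 at 500 CPM or more, the 32-cell level ranged from 308 to 499 CPM, the 16- to 8-cell ratio had a median of 0.808 and the 32- to 16-cell ratio one of 0.665 (range 0.526 to 0.751). The members made up 0.993%, 1.51%, 1.72%, 1.74% and 1.01% of the genes at the floor in these classes, in the same order. Fewer counts lie behind the lower classes, with 16 to 36 counts over the 5 older embryos in the lowest and 483 to 783 in the highest, and the part of counting error in the order of the ratios was not tested.

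**Figure D4:**
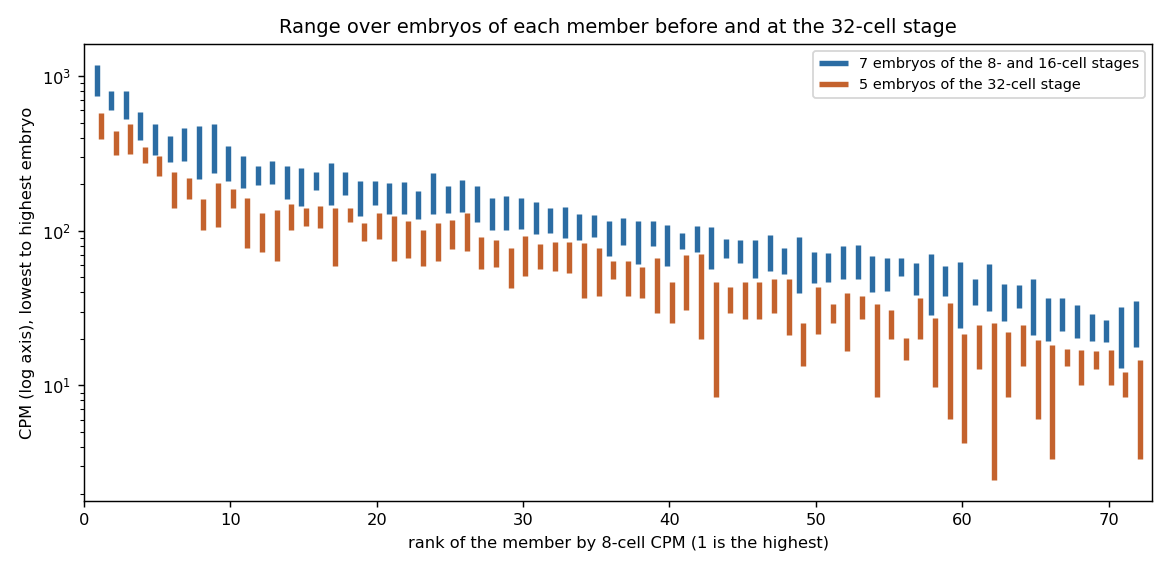
Lowest to highest CPM (log axis) of each member over the 7 embryos of the 8- and 16-cell stages (blue) and the 5 embryos of the 32-cell stage (orange), ordered by 8-cell level. The bars of a member never overlap, by the choice of members, and the space between them is a ratio of 1.01 to 2.53 with a median of 1.16.

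The separation between younger and older embryos was narrow for many members. The lowest younger embryo exceeded the highest older one by a median ratio of 1.16, by no more than 1.1 in 22 members, and by 1.5 or more in 4, which were 66277, 178344, 203407 and 20475. In raw counts, 52 of 72 had a lowest younger count no more than 5 above the highest older count, and in 19 the lowest younger count was the smaller number, the order holding only after division by the totals. The counting interval of the 32- to 16-cell ratio lay below 1 for 70 members. The choice made this ratio low on the same counts, so the number is a description. The interval covers counting error only, and replicates differed by more than that. At the edges of the choice, gene model 106937 was the last inside the 32- to 8-cell limit, at 0.596, and 224953 was just outside at 0.602. For the 16- to 8-cell ratio they were 111414 at 0.758 and 202635 at 0.737. For the level floor they were 216386 with 21.2 CPM at the 16-cell stage and 210041 with 18.2 CPM at the 8-cell stage. For the separation they were 212611, at a ratio of 1.01, and 228160, at 0.999.

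The members at the edges show what the limits admit. Gene model 106937 stood at 97.9, 97.4, 139.6 and 139.6 CPM in embryos of 8 cells, at 131, 109 and 122 CPM in those of 16 cells and at 77.2, 66.1, 54.9, 83.6 and 84.6 CPM in those of 32 cells. Its 8- and 16-cell embryos overlapped fully, and the highest 32-cell embryos were close below the lowest 8-cell ones. Gene model 111414 stood at 196, 164, 173 and 205 CPM in embryos of 8 cells, at 169, 128 and 128 CPM in those of 16 cells and at 121, 125, 97.7, 110.4 and 63.5 CPM in those of 32 cells. Here 16-cell replicates 2 and 3 stood close to 32-cell replicates 1 and 2, and 32-cell replicate 5 was far below the rest of its stage. Gene model 216386 stood at 24.5, 24.4, 26.6 and 19.5 CPM in embryos of 8 cells, at 19.1, 21.3 and 22.4 CPM in those of 16 cells and at 13.4, 12.2, 15.3, 10.03 and 16.9 CPM in those of 32 cells. It had 3 to 12 counts in each embryo, so single counts decide its order. By contrast, gene model 203407 stood at 87.4, 88.3, 68.7 and 87.7 CPM in embryos of 8 cells, at 79.8, 66.3 and 83.4 CPM in those of 16 cells and at 43.6, 41.6, 30.5, 33.4 and 29.6 CPM in those of 32 cells. Its groups of younger and older embryos were separated by a ratio of 1.52, and it met the rule under TMM and DESeq2 scaling, thinning and the conversion of UMI counts alike.

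Genes such as 202635 show how close the members stand to transcripts lowered earlier. It went from 724 CPM at the 8-cell stage through 534 to 247 CPM and it was left out by its 16-cell level alone, as were 60 genes in all that met the other conditions. The 511 genes lowered to under 0.75 times by the 16-cell stage had a median 16- to 8-cell ratio of 0.583. Their median 32- to 16-cell ratio was 0.797. Most of their difference thus preceded the 16-cell stage, where for the members most of it followed. The limit of 0.75 divides these sets, so this contrast follows from the choice and is no result about timing. The 511 genes ended at a median of 0.465 times the 8-cell level, against 0.512 for the members. Among the 146 genes left out for overlapping embryos only, the median level at the 8-cell stage was 49.9 CPM, against 103 CPM for the members, and the median 32- to 8-cell ratio was 0.550. Leaving out 16-cell replicate 2 alone would have separated 19 of these 146, the most for any embryo, and leaving out 8-cell replicate 1 would have separated 1, the fewest.

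The spread between embryos of one stage was of the size seen for other genes at the 32-cell stage and smaller before it. The median coefficient of variation of the members was 16.4%, 11.7% and 21.5% at the 8-, 16- and 32-cell stages. For the 5140 genes at the floor it was 20.7%, 17.03% and 21.5%. Members needed a lowest younger embryo above all older ones, which favours a small spread at the younger stages. The sets were also not matched for level, with median 8-cell levels of 103 CPM for the members and 86.6 CPM for the genes at the floor. What part the choice had in the smaller values was not tested. All 5 older embryos lay below the younger ones for every member by the choice. Within the 32-cell stage, each embryo was the highest for between 11 and 19 members and the lowest for between 8 and 27.

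One feature that the choice did not use was the span of the gene in the annotation. The members had a median span of 2184.5 bases (quartiles 1262.5 and 3797), against 3196 bases (quartiles 1860.5 and 5153) for the 5099 genes at the floor with a position. Of the 72, 49 (68.1%) were shorter than the median of those genes. Among the genes lowered earlier, 506 had a position and a median span of 2453.5 bases, and among those with overlapping embryos 145 had a position and a median of 2896 bases. The span was also compared within the classes of 8-cell level. The medians of members and of genes at the floor were 2471 and 3152.5 bases at 20 to 50 CPM and 1555 and 3172 at 50 to 100 CPM. They were 2269 and 3382 bases at 100 to 200 CPM, 3173.5 and 3321 at 200 to 500 CPM, and 1386 and 2479 above. The members were the shorter in each class, least so at 200 to 500 CPM. These are descriptions over genes, which are not replicates, and no test was made. Spans include introns and depend on how complete each gene model is.

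**Figure D5:**
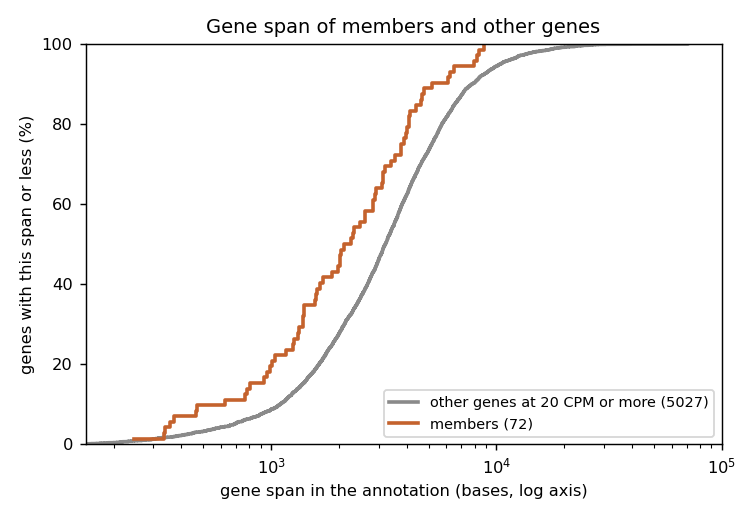
Share of genes (y axis, %) with a span up to the length on the x axis (bases, log axis), for the 72 members (orange) and for the other genes with at least 20 CPM at the 8- and 16-cell stages and a position (grey). The orange curve lies left of the grey one over nearly the whole range, with medians of 2184.5 bases for the members and 3196 bases for all genes at the floor.

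In the order of the annotation, no pair of members stood next to each other or with up to 4 genes between them. Spans of 5 members (6.94%) overlapped the neighbouring gene model, as did 4.16% of genes at the floor. These were 206755, 224875, 184335, 184168 and 211703, for which the counts of the neighbours may be mixed. None of the components of the TGF-β superfamily, the pathway the study followed, was a member. Of the 33 components listed, 32 were in the table and 10 reached the level floor, where the members were 72 of 5140 genes. *TSG*, an extracellular modulator of BMP signalling, was lowered earlier by its stage CPM. It stood at 0.530 times its 8-cell level at the 16-cell stage and 0.489 times at the 32-cell stage. Its younger embryos were not all above its older ones.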

How the data were processed

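CEL-Seq libraries of 12 single embryos were analysed, and stages and replicate numbers were taken from the sample titles. The authors separated reads by barcode, aligned them to the Capca1 assembly with Bowtie2 and obtained counts of UMIs for each gene model by an htseq-count script of the CEL-Seq pipeline. The deposited counts are whole numbers, and the methods state a binomial conversion of UMIs to transcripts. The highest count, 1024, was reached by 28 values and equals the number of distinct UMIs of 5 bases. Whether the deposited counts are converted is therefore not settled, and the conversion was tried as an alternative. The highest count of a member was 450. The authors' normalized table and their table of DESeq2 results (a mean, fold changes, statistics and p-values) were not used.

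CPM was computed over the total of each embryo, and stage CPM from counts summed over a stage. All genes with at least 10 counts over the 12 embryos (11854) were fitted with edgeR 4.0.16 in R 4.3.3, with TMM scaling, the quasi-likelihood F test, and p-values adjusted over all genes by Benjamini and Hochberg with a threshold of 0.05. Standard errors are the size of the log2 fold change over the square root of F. Ratios of summed counts carry exact binomial intervals at 95% that cover counting error only. Fits and the rule were run on simulated data to check the code. For the rule, these data held counting error only and equal totals, unlike the embryos, so they do not measure how often it errs here. Python 3.11.15 and scipy 1.17.1 were used otherwise.

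The members, lists and tests were chosen with earlier results of these data known. Named members were the 10 most abundant, the 10 with the lowest 32- to 16-cell ratio and those nearest inside each limit of the rule, and others named were chosen after their values were seen. Lists by product name, protein patterns and promoter motifs had been planned and were not run, because the annotation used here holds none. Totals ranged from 236321 to 491733 counts per embryo, and pairs of replicates differed beyond sampling noise (chi-square per degree of freedom 1.81 to 3.02).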

Additional observations from a re-analysis of the deposited data

Results flagged for a closer look

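The levels of the 23 named members and their summed level were examined in the groups of 4 and 5 embryos, 48 groups in all, for 1 embryo standing away from its group. There were 3, and chance gives about 1 in 20 groups. Gene model 66277 had 62.9 CPM in 8-cell replicate 1, where the other 8-cell embryos lay at 51.0 to 51.9 CPM. Gene model 20475 had 201 CPM in 8-cell replicate 2, where the group median was 259 CPM, and 130 CPM in 32-cell replicate 4, where the group median was 88.5 CPM. In none of these did the embryo cross to the range of the other side, since the members were chosen for that.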

How the results depend on the processing

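The number of genes meeting the rule was 72 over the totals, 58 with TMM scaling, 49 with DESeq2 size factors and 65 with the binomial conversion of UMI counts, of which 58, 49 and 61 were members. Thinning every embryo to the smallest total left 44 genes, 28 of them members. Of the 72, 42 met the rule under the first 3 of these settings and 21 under all 4. Of the 23 named members, 9 met it under all 4. Membership of single genes thus depends on depth and scaling. Stricter limits gave 29 genes (32- to 8-cell ratio at most 0.5), 24 (16- to 8-cell ratio at least 0.9) and 54 (floor of 50 CPM). With each embryo left out in turn, 65 to 105 genes met it, and between 58 and 71 members were among them. The most, 105, were found without 16-cell replicate 2.

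The median 32- to 8-cell ratio of the members stayed within 0.501 to 0.519 with each embryo left out. The median 16- to 8-cell ratio, 0.847, was 0.833 with TMM scaling, 0.825 with DESeq2 size factors, and 0.846 to 0.873 with each embryo left out, the highest without 8-cell replicate 3.

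In the fits across all genes, genes called lower from the 16- to the 32-cell stage numbered 56 in the chosen edgeR fit, 105 without a filter on low counts and 30 with DESeq2, and genes called higher 206, or 320 without the filter. Members called lower at this step numbered 20, against 11 with DESeq2 and 13 with the replicate block, and every other count with the block was within 1.5 times of that without it, and 9 to 21 with each embryo left out. Members called lower from the 8- to the 16-cell stage numbered 0, against 1 with DESeq2 size factors, 4 with filterByExpr and 1 with DESeq2's tests, and 0 to 2 with each embryo left out. At that step 277 to 538 genes were called lower with each embryo left out, the fewest without 16-cell replicate 2. Same-numbered embryos of different stages had correlations of deviations from the stage means of -0.09 to 0.08. Differently numbered embryos are not given beside them, so whether the replicate numbers pair embryos is not settled. The cause of the differences between fits was not tested. The 23 named members kept a negative log2 fold change for the second step in all 388 values under 17 alternatives, between -1.95 and -0.23. None moved by more than 1 SD between embryos. The choice put every 16-cell embryo above every 32-cell embryo on the same counts, so the sign could hardly change.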
